A study of Mus musculus with 2 samples.

Results

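The ligands and receptors that guide growing axons were examined in ureters of mouse embryos with a conditional deletion of Rbpj in the ureteric mesenchyme and of controls. Members were taken by gene symbol from the non-control spots of a 2-colour array. They are the semaphorins, plexins, ephrins of classes A and B, Eph receptors of classes A and B, Slits, Robos and Unc5 genes, with Nrp1, Nrp2, Ntn1, Ntn4, Dcc and Neo1. The rule used gene symbols and no measured value, although it was set with earlier results of these data known. It gave 68 genes of 31870 gene names on the array, with 90 probes between them.

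Each of the 2 arrays carried RNA of Rbpj-cKO embryos against RNA of control embryos, both at E18.5, of NMRI strain and of 1 sex. Rbpj-cKO embryos had the genotype Tbx18(cre/+);Rbpj(fl/fl), and controls were given as Rbpj(fl/?), with no cre named. The cre sits at the Tbx18 locus, so Rbpj-cKO embryos also had 1 Tbx18 allele altered, and recombination is limited to cells of the Tbx18 lineage, which in the ureter are mesenchymal. Urothelium, endothelium and nerve cells are not part of that lineage. Rbpj-cKO RNA was labelled red on the male array and green on the female array, so that sex and dye orientation cannot be told apart. How many embryos gave each RNA is not stated in the labels, and the tests therefore measure only the spread between these 2 arrays, which may be technical.

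The Notch pathway acts through Rbpj, the DNA-binding partner of the cleaved receptor. Axon guidance cues were named for steering nerve fibres, and the same molecules position vessels, epithelia and mesenchyme. Semaphorins bind plexins, often with a neuropilin as co-receptor. Ephrins are held on the cell surface and bind Eph receptor tyrosine kinases on neighbouring cells. Slits bind Robos, and netrins bind Dcc, neogenin and the Unc5 receptors. In the urinary tract, Slit2 and Robo2 are known for restricting where the ureteric bud forms, and Efnb2 is a known Notch target in arterial endothelium.

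A log2 ratio below is that of Rbpj-cKO over control within 1 array after background correction and loess normalization, so that 1 stands for a 2-fold higher signal and a value below 0 for a lower one. Pairs of ratios are given male array first, and intervals are limma's 95% intervals of the mean of the 2 arrays. Among the members, 64 of 68 genes were measured well above background, each in all 4 channels. The other 4 genes (Epha6, Epha10, Robo3 and Unc5d) were not well above background in any channel. None of the 64 members passed the test for a difference between Rbpj-cKO and control (limma, adjusted p under 0.05 over all features), where 26 of 20989 features did, or 0.124%. The smallest mean log2 ratio among those 26 features was 1.22 in size, and the members lay between -0.50 (Sema3a) and 0.60 (Epha8). The adjusted p was 0.892 for Epha8 and 1.00 for each of the other 63 members. The values below are therefore measured differences with their intervals, and no member is called changed. Where both Rbpj-cKO channels lay on one side of both control channels, this is a description. The share of all features with such a separation was not counted.

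The targeted gene, Rbpj, had log2 ratios of -1.58 on the male array and -0.93 on the female one (mean -1.25 ± 0.46 SD, n = 2, limma adjusted p = 0.0761). It was lower in Rbpj-cKO on both arrays. Whether its probe lies in the floxed part was not analysed here. The median signal was 11.2 to 13.3 times background in green and 6.38 to 6.78 times in red, and 66.8% to 71.1% of spots were well above background. Marker genes of the tissue were present: 13 of 13 urothelial and 10 of 10 smooth muscle markers were above background in every channel.

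The identity of 1 measured member is uncertain. The probe that stands for Dcc, the classical netrin receptor, is placed on chromosome 7 in the files, whereas the gene lies on chromosome 18. Of its 60 bases, 51 form a repeat of a 3-base unit, and its accessions also name Gcm1. The other 2 Dcc probes lie on the right chromosome and were not well above background in any channel. The signal under the name Dcc is therefore reported as uncertain, and 63 members remain measured without it. The other 89 member probes lie on the chromosome of their gene and name 1 RefSeq gene at most, although 33 of the 60 bases of the single Ephb3 probe are a 2-base repeat.

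Across all measured members, 18 were higher in Rbpj-cKO on both arrays, or 28.1%, and 6 were lower on both, or 9.38%. Among all features the shares were 21.7% higher on both and 19.7% lower on both. Under the other scalings 22 of 64 members were higher on both and 4 to 5 of 64 were lower on both. The shares of all features there were 22.5% to 23.8% higher on both and 12.1% to 19.8% lower on both. The signs were opposite in 40 of 64 members and in 12302 of 20989 features. No member differed by 1.5-fold or more in one direction on each array, where 134 features did, or 0.638%.

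**Figure D1:**
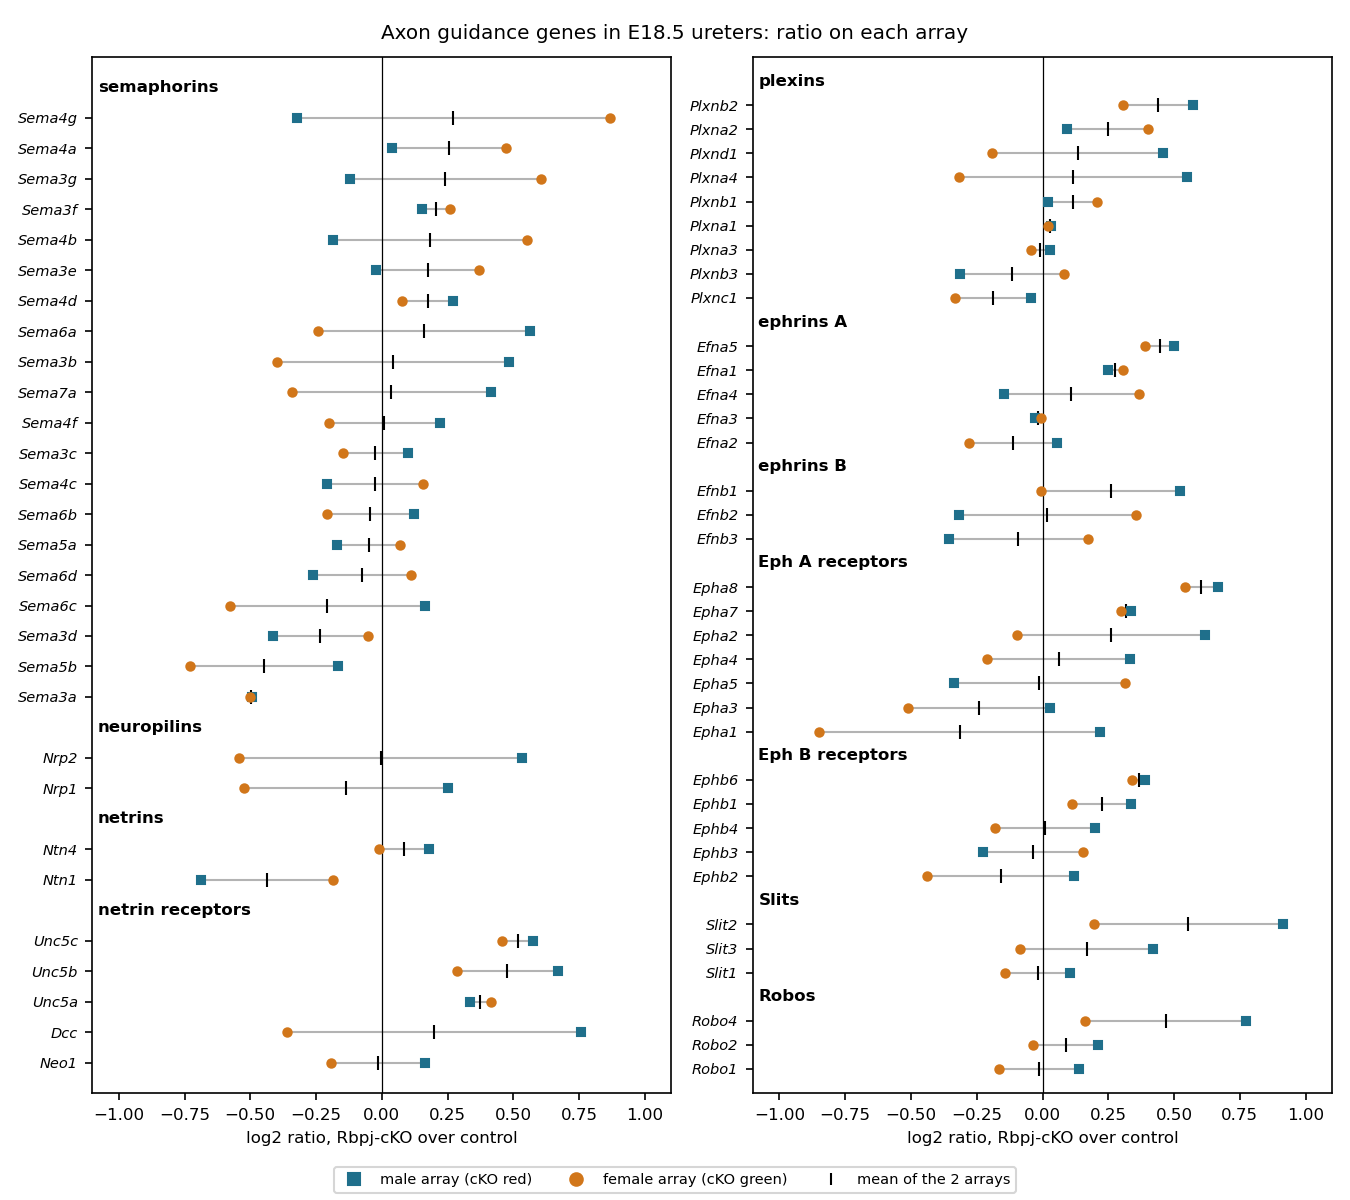
Log2 ratio of Rbpj-cKO over control for the 64 measured members, by family. Squares are the male array, circles the female array and ticks their mean; in 40 members the 2 arrays lie on opposite sides of 0, and the means run from -0.50 (Sema3a) to 0.60 (Epha8). The Dcc point comes from the uncertain probe.

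Semaphorins, the ligands of plexins, formed the largest family, with 20 measured genes. Their median log2 ratio was 0.02, with 3 genes higher in Rbpj-cKO on both arrays, 3 lower on both and 14 of opposite sign. At the lower end stood Sema3a, a secreted repellent of sensory and sympathetic axons. Its log2 intensity was 11.29 in Rbpj-cKO and 11.78 in control on the male array, and 11.59 and 12.09 on the female array. Both Rbpj-cKO channels were below both control channels. The log2 ratios were -0.49 and -0.50 (mean -0.50, 95% interval -0.92 to -0.07), one of the closest pairs of values among the members.

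A second, much dimmer Sema3a probe (mean log2 level 7.54 against 11.69) gave 0.08 on the male array and -0.46 on the female one. The lower signal was therefore seen with both probes on the female array only. The second probe lies at chr5:13473453-13473512 on mm9, plus strand, and is shown because the 2 probes of the gene differ.
Sema3a second probe: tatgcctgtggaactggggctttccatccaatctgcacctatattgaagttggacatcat

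Sema5b, a transmembrane semaphorin with thrombospondin repeats, had log2 ratios of -0.17 and -0.73 (mean -0.45 ± 0.40 SD, n = 2, 95% interval -0.91 to 0.01). Its second probe gave -0.51 and -0.36, so all 4 values for this gene were below 0. Sema3d, another secreted class 3 member, was the remaining semaphorin lower on both arrays, at -0.41 and -0.05.

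Higher on both arrays were Sema4a (0.04 and 0.47), Sema3f (0.15 and 0.26) and Sema4d (0.27 and 0.08). Sema3f binds Nrp2, and Sema4d binds plexin B1. Sema4g had the highest mean of the family, 0.27, from values of -0.32 and 0.87 that lie on opposite sides of 0. Its log2 intensity was 9.81 in Rbpj-cKO against 10.13 in control on the male array, and 10.50 against 9.63 on the female array. Sema3c, a ligand expressed in many mesenchymal tissues, was at 16.12 and 16.02 in the male channels and at 16.20 and 16.35 in the female channels. Its log2 ratios of 0.10 and -0.15 were of opposite sign. The remaining semaphorins (Sema3b, Sema3e, Sema3g, Sema4b, Sema4c, Sema4f, Sema5a, Sema6a, Sema6b, Sema6c, Sema6d and Sema7a) also had opposite signs, with means between -0.21 (Sema6c) and 0.24 (Sema3g).

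Plexins, the receptors that turn semaphorin binding into collapse of the cytoskeleton, had 9 measured genes and a median of 0.11. Of these, 4 were higher on both arrays (Plxnb2, Plxna2, Plxnb1 and Plxna1), and Plxnc1 was lower on both. Plxnb2 had the highest mean. Its log2 intensity was 16.35 in Rbpj-cKO and 15.78 in control on the male array, and 16.37 and 16.06 on the female array. Both Rbpj-cKO channels were above both control channels. Its log2 ratios were 0.57 and 0.30 (mean 0.44 ± 0.19 SD, n = 2, 95% interval 0.01 to 0.87). With each array only centred on its median, the female ratio of Plxnb2 was -0.18 and the male one 1.08.

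Plxna2 followed, at 0.09 and 0.40. Plxna1, a co-receptor with neuropilins for class 3 semaphorins, gave 0.03 and 0.02. Plxnc1, the receptor of Sema7a, had the lowest mean, -0.19, from -0.04 and -0.33, and its second probe gave -0.03 and -0.24. Median centring turned the male value of Plxnc1 to 0.11. Plxnd1, which binds Sema3e on vessels, gave 0.46 and -0.19, and Plxna4 gave 0.55 and -0.32. Plxna3 lay at 0.03 and -0.04. Plxnb3 gave -0.31 and 0.08 (mean -0.12), and its mean was -0.21 with the scanner's processed signals.

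Neither neuropilin kept its sign across the arrays. Nrp1, the co-receptor for Sema3a and also a receptor for VEGF, gave 0.25 and -0.53. Nrp2, the co-receptor for Sema3f, had log2 intensities of 12.80 in Rbpj-cKO and 12.26 in control on the male array, and of 12.13 and 12.67 on the female array. Its log2 ratios of 0.53 and -0.54 cancel to a mean of -0.005, and a second probe gave 0.14 and 0.09. The sign of this mean changed with the processing.

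Among the ephrins of class A, which are tethered by a lipid anchor, Efna5 and Efna1 were higher on both arrays. Efna5 had log2 intensities of 13.19 in Rbpj-cKO and 12.69 in control on the male array, and of 13.30 and 12.91 on the female array. The 2 Rbpj-cKO values were above the 2 control values. The log2 ratios were 0.50 and 0.39 (mean 0.45 ± 0.08 SD, n = 2, 95% interval 0.02 to 0.87). Efna1, a vascular and epithelial ephrin, gave 0.25 and 0.30. Efna3 lay at -0.03 and -0.01, and Efna2 and Efna4 were of opposite sign, with Efna2 lowest at a mean of -0.11.

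All 3 transmembrane ephrins of class B had opposite signs on the arrays. Efnb2, the arterial ligand, gave -0.32 on the male array and 0.35 on the female one, with a mean of 0.02 and a 95% interval of -0.46 to 0.49. Efnb1 had the highest mean, 0.26, from 0.52 on the male array and -0.004 on the female array. Efnb3 was lowest at -0.09. Ephb4, the venous receptor that binds Efnb2, gave 0.20 and -0.18 (mean 0.01, 95% interval -0.43 to 0.45).

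Eph receptors of class A had 7 measured genes and a median of 0.06, of which Epha8 and Epha7 were higher on both arrays and the other 5 of opposite sign. Epha8 had the highest mean ratio of all members. Its probe was dim, with a mean log2 level of 8.02, where the members not well above background lay at 6.83 to 6.98. Its signal was 8.42 in Rbpj-cKO and 7.76 in control on the male array and 8.23 and 7.69 on the female array (log2 intensity). The 2 pairs did not overlap. The log2 ratios were 0.67 and 0.54 (mean 0.60 ± 0.09 SD, n = 2, 95% interval 0.18 to 1.03), or 1.52-fold. With the scanner's own processed signals, which carry no added offset, the same probe gave 1.37 and 0.81 (mean 1.09, limma adjusted p = 0.588).

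Epha7, a binding partner of Efna5, was higher in Rbpj-cKO with each of its 3 probes on both arrays. The brightest gave 0.34 and 0.30 (mean 0.32, 95% interval -0.11 to 0.74), and the others 0.27 and 0.69, and 0.14 and 0.71. Its log2 intensity with the brightest probe was 13.04 against 12.70 on the male array and 12.90 against 12.60 on the female array. The second probe, at chr4:28869764-28869823 on mm9 (plus strand), is shown as one of the 3 that gave the same direction.
Epha7 probe: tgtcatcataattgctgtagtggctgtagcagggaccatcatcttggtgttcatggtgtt

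The lowest class A receptor was Epha1, with 0.22 on the male array and -0.85 on the female one (mean -0.32 ± 0.75 SD, n = 2). Its log2 intensity was 10.93 in Rbpj-cKO and 10.71 in control, then 10.51 and 11.35. Epha2, an epithelial receptor of Efna1, gave 0.62 and -0.10. Epha4, which binds ephrins of both classes, gave 0.33 and -0.21, Epha5 -0.34 and 0.31, and Epha3 0.03 and -0.51. A second, less bright Epha5 probe gave 0.52 and 0.14, higher in Rbpj-cKO on both arrays.

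In class B, Ephb6, a receptor without kinase activity, gave 0.39 and 0.34 (mean 0.37, 95% interval -0.06 to 0.79), while its second probe was not well above background. Ephb1 gave 0.34 and 0.11, both above 0. Ephb2 was lowest, at 0.12 and -0.44. Ephb3 gave -0.23 and 0.16 with its repeat-bearing probe.

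Of the Slits, the secreted ligands of Robos, Slit2 had the highest ratio on a single array among all members. Its log2 intensity was 13.24 in Rbpj-cKO and 12.33 in control on the male array, and 13.02 and 12.83 on the female array. Both Rbpj-cKO channels were above both control channels, by unequal amounts. The log2 ratios were 0.91 and 0.19 (mean 0.55 ± 0.51 SD, n = 2, 95% interval 0.07 to 1.04). Slit3 gave 0.42 and -0.08, and Slit1 gave 0.11 and -0.14.

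Robo4, the Robo of endothelial cells, resembled Slit2 in its unequal values. It had log2 intensities of 13.58 and 12.81 on the male array and of 13.46 and 13.30 on the female array, Rbpj-cKO first. The log2 ratios were 0.77 and 0.16 (mean 0.47 ± 0.43 SD, n = 2, 95% interval 0.00 to 0.93). Robo1 gave 0.14 and -0.17, and Robo2, the receptor of Slit2 in the nephric region, gave 0.21 and -0.03. A second Robo2 probe gave 0.49 and 0.64, and this gap of 0.48 between the 2 probe means was the widest among the 12 members with several measured probes. In 7 of those 12 members the probes shared the sign of their mean.

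Netrin receptors had the highest median of the families, 0.37 over 5 genes, or 0.43 over the 4 left without the uncertain Dcc probe. All 3 measured Unc5 genes, which encode the receptors for repulsion by netrin, were higher in Rbpj-cKO on both arrays. Unc5c had log2 intensities of 14.70 and 14.13 on the male array and of 14.53 and 14.07 on the female array, Rbpj-cKO first. Its log2 ratios were 0.58 and 0.46 (mean 0.52 ± 0.08 SD, n = 2, 95% interval 0.09 to 0.94), and 0.16 and 0.27 with a second probe.

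Unc5b, known from vessels, had log2 intensities of 13.88 and 13.21, then 13.76 and 13.48. Both values in Rbpj-cKO were above both in control, with log2 ratios of 0.67 and 0.28 (mean 0.48 ± 0.27 SD, n = 2, 95% interval 0.04 to 0.92). Unc5a gave 0.33 and 0.41 (mean 0.37, 95% interval -0.05 to 0.80). The highest control value of Unc5a, 12.15 on the female array, lay just below its lowest Rbpj-cKO value, 12.20 on the male array. Neo1, which encodes neogenin, gave 0.16 and -0.19, and the uncertain Dcc probe gave 0.76 and -0.36.

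On the ligand side, Ntn1, the secreted netrin, was lower in Rbpj-cKO on both arrays, the opposite side of 0 from the Unc5 genes. Its log2 intensity was 11.59 in Rbpj-cKO and 12.28 in control on the male array, and 11.89 and 12.08 on the female array. Both Rbpj-cKO values were below both control values. The log2 ratios were -0.69 and -0.19 (mean -0.44 ± 0.35 SD, n = 2, 95% interval -0.89 to 0.02). A second Ntn1 probe was not well above background. Ntn4, a netrin of basement membranes, gave 0.18 and -0.01 (mean 0.08). With the scanner's processed signals Ntn4 gave 0.41 and 0.11 (mean 0.26), so that its female value changed sign.

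**Figure D2:**
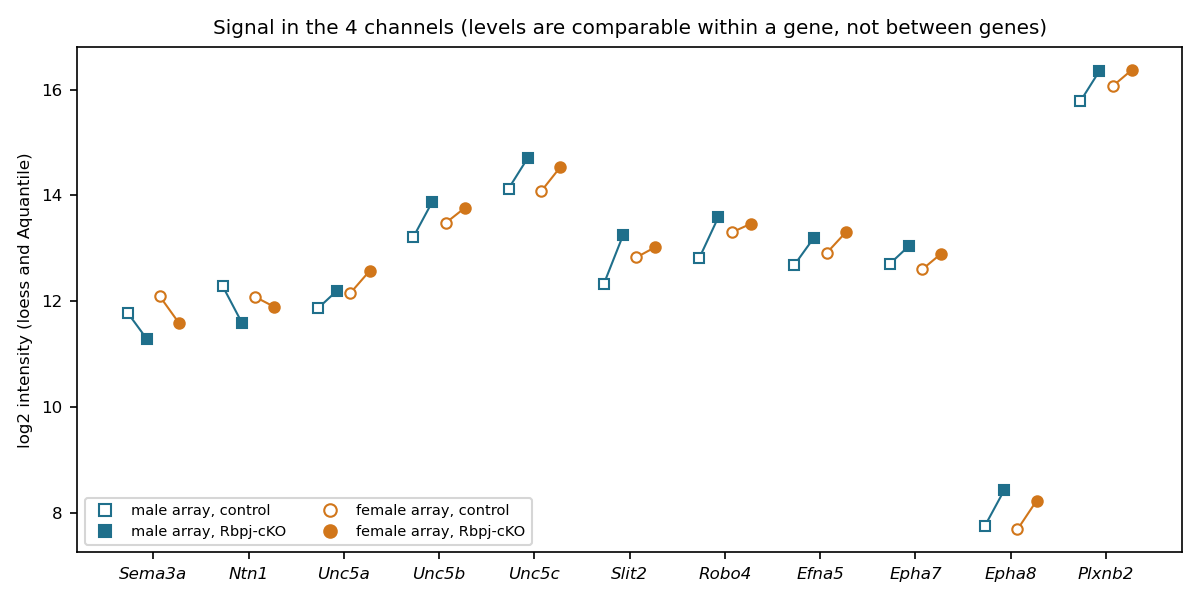
Log2 intensity of 11 members in the 4 channels; open symbols are control, filled symbols Rbpj-cKO, squares the male and circles the female array, and a line joins the 2 channels of an array. Sema3a and Ntn1 are lower in Rbpj-cKO on both arrays and the other 9 higher; heights may be compared within a gene but not between genes.

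An unadjusted p under 0.05 was reached by 8 members, or 12.5%, against 3.37% of all features, and these were Epha8, Unc5c, Sema3a, Slit2, Unc5b, Efna5, Plxnb2 and Robo4. With the scanner's processed signals it was reached by 4 members (6.25%) against 4.01% of features, and with median centring by 1 member (1.56%) against 1.08%. The shares were 9.38% against 3.34% when a gene's probes were averaged and 10.9% against 3.53% with an intensity trend in the prior. They were 17.6% against 3.07% without the filter on background. No member passed after adjustment. Of the 8 named, Sema3a alone had a mean below 0. The shares of members and of features are descriptions, as members are not replicates.

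Ligands and receptors were also taken separately. For 33 ligands the median log2 ratio was 0.04, of which 6 were higher and 5 lower on each array, and for 31 receptors it was 0.09, of which 12 were higher and 1 was lower on each. Among all features 21.7% were higher and 19.7% lower on both arrays, and the counts of ligands and receptors are descriptions. The receptor median was 0.25 on the male array and -0.03 on the female array, so the offset of receptors was seen on 1 array. Over all 64 members the median was 0.16 on the male array and -0.01 on the female one, and the median of the 2-array means was 0.05, against 0.01 for all features.

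**Figure D3:**
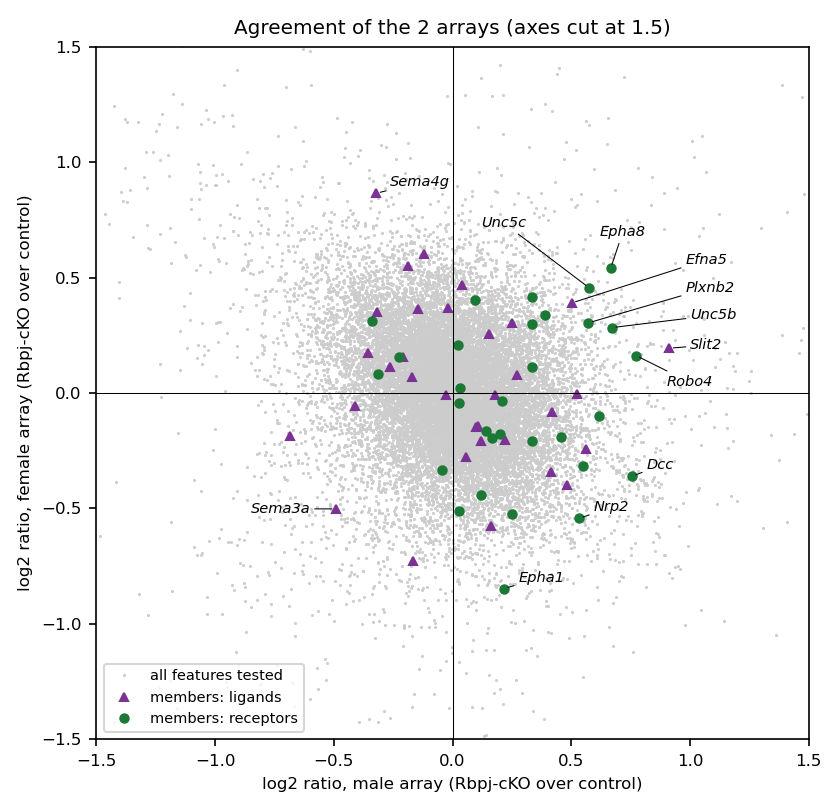
Log2 ratio on the female array against that on the male array for all features (grey points) and for the members (triangles are ligands, circles receptors), with both axes cut at 1.5. The named members are the 8 with an unadjusted p under 0.05 and the 4 with opposite signs and values at least 2-fold apart; members lie on both sides of both zero lines.

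The spread between the arrays was next compared. The median absolute difference between a gene's 2 ratios was 0.38 for members and 0.28 for all features, and the SD over members was 0.34 on the male array and 0.35 on the female one, against 0.31 and 0.33 over all features. Opposite signs with values at least 2-fold apart were found in 4 members, or 6.25%, and in 3.96% of features. They were Sema4g, Dcc, Nrp2 and Epha1. The 95% interval of a member extended by a median of 0.44 on either side of its mean, so that for a typical member a mean below that size could not be told from 0 with 2 arrays.

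Cell markers that could move with these genes gave the following values, and fewer cells of a type and less RNA per cell cannot be told apart in RNA from whole ureters. The 12 measured endothelial markers had a median of -0.04 (0.05 male, -0.04 female), beside Robo4 and Unc5b at 0.47 and 0.48. Other members described above in relation to vessels had lower means: Efna1 0.28, Plxnd1 0.13, Efnb2 0.02, Ephb4 0.01 and Nrp1 -0.14. The summed intensity of the endothelial markers was 78947 in Rbpj-cKO and 83097 in control on the male array, and 77684 and 88122 on the female array. Such a sum is weighted towards the brightest probes of its list and is not a measure of cell number. The 15 measured nerve and glia markers had a median of -0.17 (0.13 male, -0.28 female), and their summed intensity was 54921 against 53834, then 52155 against 79517, Rbpj-cKO first. The widest differences between the arrays in this list were those of Dbh (1.42 and -2.32) and Th (0.61 and -1.79). The part of these cell types in the member values was not tested.

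Urothelial markers had a median of 0.26 over 13 genes, of which 10 were higher on both arrays, where 21.7% of all features were. Efna1 and Epha2, described above as epithelial, had means of 0.28 and 0.26, the latter from 0.62 and -0.10. Epha1, of the same class as Epha2, had a mean on the other side of 0, -0.32, from 0.22 and -0.85. Smooth muscle markers had a median of -0.32 over 10 genes, of which 8 were lower on both arrays. Fibroblast markers had a median of 0.21 over 9 genes (0.31 male, -0.02 female), and mesothelial markers one of 0.25 over 6 genes (0.47 male, -0.05 female). No gene of these 6 lists passed the test. The part of these tissue layers was likewise not tested.

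Other genes of axon guidance, 72 in all, comprised further ligands, co-receptors, adhesion molecules and cytoplasmic effectors. Of the 64 measured, 0 passed the test in either direction and 4 had an unadjusted p under 0.05. Their median was 0.02 (0.05 male, -0.04 female), with 11 of 64 higher on both arrays and 9 of 64 lower on both. Among all features 21.7% were higher on both, 19.7% were lower on both and 3.37% had an unadjusted p under 0.05. Named for their extreme values, the lowest was Rtn4, the myelin-associated inhibitor Nogo, at -0.57 and -0.94 (mean -0.75), and the highest was Flrt2, a ligand of Unc5 receptors, at 0.83 and 0.22 (mean 0.53). No gene of this list reached 1.5-fold in one direction on both arrays, where 0.638% of all features did.

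Promoters of the members were searched for GTGGGAA, the core of the sequence that Rbpj binds, on both strands of 300 bases around the transcript start in the RefSeq table (GRCm38.p6). The motif was present in 3 of 58 member genes with an entry, or 5.17%, and in 7.25% of 27025 genes with a promoter in the table. The 3 genes were Epha7, Plxnb2 and Ntn4, the last with the match 36 bases after the start. No other member with an entry held these letters in this window, Sema3a (lower on both arrays) and Unc5c (higher on both) included. A match is a description of the letters and not a binding site.

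The 250 bases before the start are given for the 2 members with a match in them and for Sema3a, which has none, with the motif in capitals. They lie at chr4:28812881-28813130 (plus strand), chr15:89180789-89181038 (minus strand) and chr5:13396534-13396783 (plus strand). The match begins 94 bases before the start in Epha7, in the direction of transcription, and 91 bases before it in Plxnb2, on the opposite strand.
Epha7 promoter: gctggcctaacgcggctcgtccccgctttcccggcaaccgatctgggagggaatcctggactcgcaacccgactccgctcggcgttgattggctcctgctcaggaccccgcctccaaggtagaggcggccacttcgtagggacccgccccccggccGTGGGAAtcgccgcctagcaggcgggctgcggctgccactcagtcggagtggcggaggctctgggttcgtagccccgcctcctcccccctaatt
Plxnb2 promoter: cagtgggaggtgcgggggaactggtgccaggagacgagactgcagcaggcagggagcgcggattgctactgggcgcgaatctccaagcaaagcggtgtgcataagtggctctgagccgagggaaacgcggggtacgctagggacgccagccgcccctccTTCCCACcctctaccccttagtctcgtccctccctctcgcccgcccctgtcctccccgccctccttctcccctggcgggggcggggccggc
Sema3a promoter: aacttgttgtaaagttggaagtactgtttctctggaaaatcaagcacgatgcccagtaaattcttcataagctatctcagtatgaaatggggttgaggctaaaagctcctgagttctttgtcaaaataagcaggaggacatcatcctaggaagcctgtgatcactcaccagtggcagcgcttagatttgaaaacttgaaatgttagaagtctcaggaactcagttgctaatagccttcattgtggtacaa

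**Figure D4:**
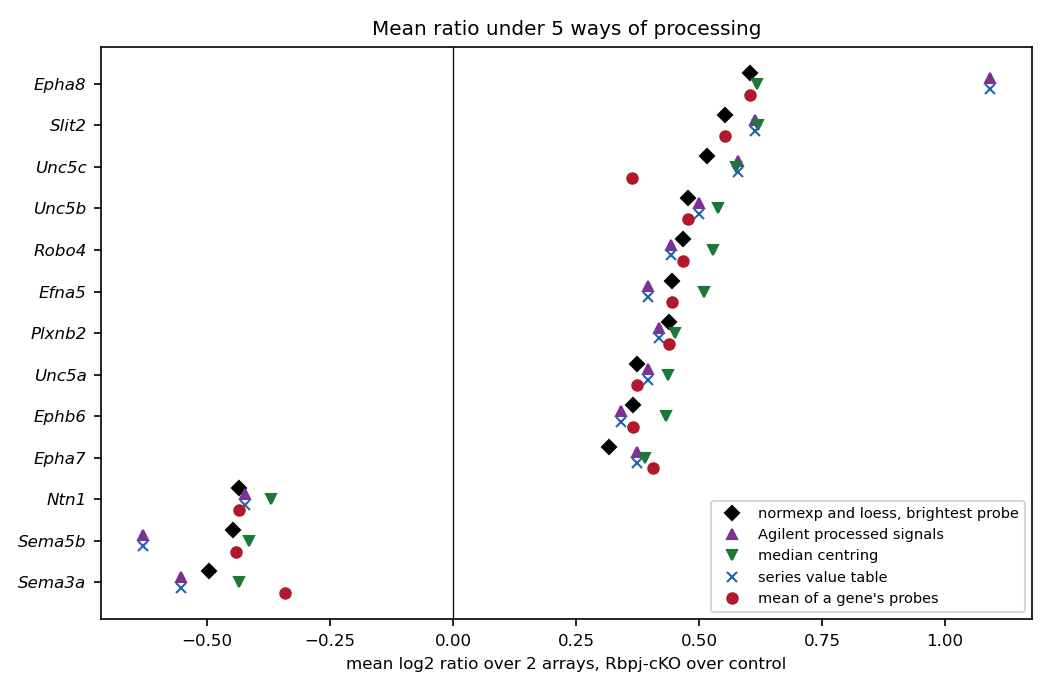
Mean log2 ratio over the 2 arrays for 13 members under 5 ways of processing. Each member stays on its side of 0; Epha8 moves from 0.60 to 1.09 with the scanner's processed signals, and Sema3a lies closest to 0 where its 2 probes are averaged.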

How the data were processed

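The members and the gene lists were chosen with earlier results of these data known. The deposited scanner files hold a spot intensity per channel from Agilent Feature Extraction 10.7.3.1, as the submitters' processing notes name it. Mean and background signals are an intensity without normalization, and processed signals an intensity after background subtraction and dye normalization, per the file headers. A value table deposited with the series holds a score, for which no method is stated in the labels or headers. For 99.6% (male) and 99.8% (female) of probes above background in both channels it equalled, within 0.001 on the log2 scale, a signed fold (Rbpj-cKO against control) of those processed signals.

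Mean signals were corrected with normexp (limma 3.58.1, R 4.3.3, offset 50) on all spots and normalized by loess per array, giving control spots a weight of 0. The offset draws the ratios of dim probes towards 0. Outlier spots (200 male, 274 female, none of a member) were dropped and spots of a probe averaged. Probes had to be well above background on both arrays in either the Rbpj-cKO or the control channel. The brightest probe stood for a gene, which left 20989 features. Levels are log2 intensity after loess and Aquantile, and may be compared within a gene only. Ratios were turned to Rbpj-cKO over control and fitted with lmFit and eBayes, in a two-sided test, and p-values were adjusted by Benjamini-Hochberg across all features (threshold 0.05). The fit had 1 residual and 10.3 prior degrees of freedom, and in a run on simulated data the prior degrees of freedom were estimated imprecisely. Slide and scan were the same for both arrays.

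Members keep the gene name in the files; 88 of 90 probes matched a RefSeq accession (GRCm38.p6). Unc5 was read as followed by 1 letter, which leaves out Unc50 and Unc5cl. The text gives every member; those with the extreme mean of a family and their partners are described most fully. Probe positions are on mm9, and exons were not analysed here. Alternatives were the processed signals, median centring, the value table, 2 other filters, the mean of a gene's probes, an intensity trend in the prior and, added after the data were seen, removal of the uncertain Dcc probe.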

Additional observations from a re-analysis of the deposited data

Results flagged for a closer look

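The male and the female array differed in sign and by at least 2-fold for 4 measured members, or 6.25%, against 3.96% of all features. The male-array minus female-array difference of the log2 ratios was -1.19 for Sema4g, 1.12 for Dcc, 1.08 for Nrp2 and 1.06 for Epha1. Each rests on 1 array per sex, with the dyes swapped between the sexes, so the differences were not tested, and sex, dye and array cannot be told apart. The Dcc value comes from the repeat-bearing probe placed on another chromosome. For Nrp2 the second probe gave 0.14 and 0.09, and the difference was seen with the first probe only. Sema4g and Epha1 have 1 probe each.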

How the results depend on the processing

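No member passed the test in any of the 9 fits, and the lowest adjusted p among members lay between 0.366 (intensity trend) and 1.00 (median centring), with 1 (median centring) to 12 (no filter) unadjusted p under 0.05. All features past the test numbered 26, against 0 with the processed signals, 0 with median centring, 0 with the value table and 0 without the filter (842, 226, 817 and 979 with an unadjusted p under 0.05), 10 when a gene's probes were averaged and 41 with an intensity trend. The cause was not tested. Members at least 1.5-fold on both arrays numbered 1 with the processed signals and 1 with the value table, which rests on them, and in both it was Epha8 (288 and 260 features reached this). The median of the members stayed between 0.04 and 0.10, and with a single array it was -0.01 (without replicate 1) or 0.16 (without replicate 2).

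Named genes had the same mean log2 ratio as in the main fit without the filter, with both channels required and with the intensity trend. No sign could change there, and the value table rests on the processed signals. Single-array values were not counted, and they differ in sign for genes such as Epha1 (0.22 male, -0.85 female). Of 203 named-gene values under the other settings, these repeats included, 191 kept sign and side of the threshold. Those that changed sign lay near 0: with the processed signals and with the value table, Nrp2 was 0.0694, Robo1 0.0164 and Slit1 0.0273, with median centring Nrp2 was 0.0666, Robo1 0.0499 and Neo1 0.0327, and with averaged probes Nrp2 was 0.0540. Rbpj passed with both channels required (adjusted p = 0.0456) and with the intensity trend (0.0126), and was at 0.244 to 1.00 in the other alternatives. No paired analysis was possible because each array already sets Rbpj-cKO against control, and the replicate number is the array. The precision is limited by the number of arrays.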
